A study of Mus musculus with 8 samples.

Results

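The comparison described here is that of ATM-/- mouse embryonic fibroblasts 8 h after neocarzinostatin with the same cells at 0 h. Its members are all 154 probes for mature microRNAs (miRNAs) that the authors' sheet for this pair lists, of the 505 probes found anywhere in the series. The 154 probes carry 151 names, since let-7a, miR-431 and miR-483* are each on a pair of probes. The series holds 8 arrays of ATM+/+ and ATM-/- littermate embryonic fibroblasts at 0, 4, 8 and 24 h after the drug, with 1 array per genotype and time. The cells of both groups used here lacked ATM, were of the same cell type and differed, per the labels, in the time after neocarzinostatin. The series holds no array of cells kept for 8 h without the drug, so drug and time in culture cannot be told apart. Nothing in the labels says whether the dishes at 0 and 8 h were parallel cultures of a single line or of several embryos. A miRNA array cannot check the loss of ATM itself.

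ATM is a protein kinase activated at double-strand breaks in DNA, and neocarzinostatin is an enediyne antibiotic that cuts DNA as ionising radiation does. A mature miRNA is cut from a hairpin by the Drosha and Dicer complexes and pairs with target mRNAs mainly through its seed, bases 2 to 8. Among the proteins linked to ATM signalling are p53, which drives transcription of the miR-34 family, and KSRP, an RNA-binding protein that aids the cutting of a subset of precursors that includes let-7. The comparison asks how miRNA levels stood after breaks in cells without this kinase.

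Mature sequences are printed for the miRNAs at both ends of the 8 h ratios and for the let-7 family, whose probes are set side by side below. They are those of RefSeq for build GRCm38.p6, 5′ to 3′, with the seed in capitals. The array names miR-103, miR-382 and the let-7 names carry no arm, and the usual guide arm was taken. Of the 10 highest ratios, miR-542-5p, miR-1902 and miR-1899 have an entry in that table under the array's name.
miR-542-5p: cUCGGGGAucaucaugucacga
miR-1902: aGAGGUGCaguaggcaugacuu
miR-1899: aGCGAUGGccgaaucugcuucc
miR-542-5p lies at chrX:53049453-53049474 on the minus strand, miR-1902 at chr2:104428871-104428892 on the minus strand, and miR-1899 at chr9:8246796-8246817 on the plus strand. Among the lowest ratios are the next 4.
miR-103: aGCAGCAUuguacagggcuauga
miR-382: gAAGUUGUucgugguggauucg
miR-409-3p: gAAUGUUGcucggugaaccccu
miR-199a-3p: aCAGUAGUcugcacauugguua
miR-382 (chr12:109733781-109733802) and miR-409-3p (chr12:109743204-109743225) lie on the plus strand of the Dlk1-Dio3 region. The probe for miR-199a-3p is shared with miR-199b by the array's own naming, and the miR-199a-3p sequence has a locus at chr1:162217883-162217904 on the plus strand and another at chr9:21496498-21496519 on the minus strand. None of these 7 seeds is shared with another printed miRNA.
The 5 let-7 members on the sheet share the seed GAGGUAG.
let-7a: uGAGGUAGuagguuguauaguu
let-7b: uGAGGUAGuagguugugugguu
let-7c: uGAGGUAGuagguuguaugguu
let-7d: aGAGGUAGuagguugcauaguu
let-7e: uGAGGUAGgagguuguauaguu
Over their 22 bases let-7c and let-7e differ from let-7a at 1 base, and let-7b and let-7d at 2, so a hybridisation probe for one may also read the others.

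The sheet holds normalized intensities of both arrays, and the deposited ratio table gives a second readout of the same pair, the 8 h array over the 0 h array. The readouts are shifted against each other. For the 125 probes in both, the log2 ratio from the ratio table minus that from the sheet had a median of 0.61, with quartiles of 0.48 and 0.72. The difference was above 0 for 117 probes and below it for 8. Over these probes the median log2 ratio was -0.11 in the sheet and 0.45 in the ratio table, and 54 were positive in the sheet against 103 in the ratio table. A statement that a probe was higher or lower at 8 h therefore depends on which zero is used. Both values are given for list medians and for many of the named probes at 8 h, and values without a mention of the ratio table are those of the sheet. Across the 125 probes, which share both arrays and are not replicates, the readouts correlated with Pearson's r of 0.82, and 104 probes had the same sign in both once each readout was centred on its median.

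The 0 h and 8 h arrays lay on different chips, at the same position on each, so chip and time cannot be told apart. With 1 array a side no test across replicates exists, and precision is limited by there being so few arrays. The only error in the files is the coefficient of variation (CV) between spots of a probe within an array, with medians of 12.9% at 0 h and 9.95% at 8 h. Carried into the log2 ratio it gives a median spot SD of 0.26, which holds no variation between cultures, extractions or arrays. Intensities at 0 h ran from 22.3 to 85994 with a median of 83.4, and at 8 h from 10.7 to 49832 with a median of 74.7. Normalized intensities under 50 were read by 51 probes at 0 h and by 42 at 8 h.

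In the sheet most miRNAs stood close to their 0 h level. The log2 ratio of 8 h over 0 h had a median of -0.10 over the 154 probes, with quartiles of -0.35 and 0.23. Of the probes, 67 (43.5%) were above 0 and 87 (56.5%) below it. A ratio of 2-fold or more above 0 h was read by 4 probes (2.60%) and one as far below it by 9 (5.84%), together 13 probes (8.44%). The 4 higher ones were miR-542-5p, miR-685, miR-1902 and miR-466f-5p. The 9 lower ones were miR-30b, miR-328, miR-103, miR-133a, miR-409-3p, miR-382, miR-23b, miR-199a-3p/miR-199b and let-7c. Both sets are seen against the identity line in the plot of 8 h against 0 h intensity.

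**Figure D1:**
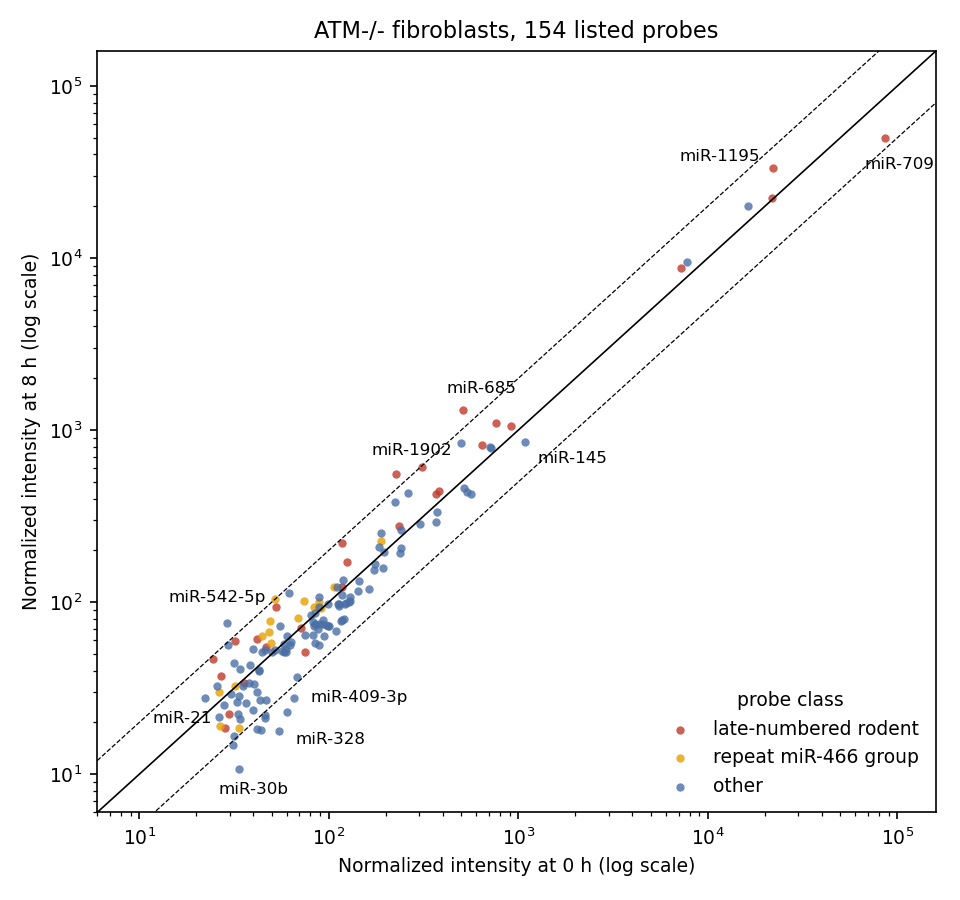
Normalized intensity at 8 h against that at 0 h for the 154 probes of ATM-/- fibroblasts, both axes logarithmic, coloured by probe class (late-numbered rodent marks the rodent miRNAs with high serial numbers); the solid line is equality and the dashed lines are 2-fold. At 8 h the probes at least 2-fold higher lie between 75.4 and 1307 and the 9 at least 2-fold lower between 10.7 and 27.7. At 0 h these sets overlap, from 28.9 to 513 and from 31.1 to 65.7.

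The higher end held some bright miRNAs with little spread between spots. Of the 10 highest probes, 4 read under 50 on either array and 4 had a spot CV over 20% on either array. The miR-685 probe read 513 at 0 h and 1307 at 8 h, a log2 ratio of 1.35 with a spot SD of 0.03. In the ratio table it stood at 2.05. miR-1902 went from 227 to 559, a log2 ratio of 1.30 with a spot SD of 0.06, and stood at 2.08 in the ratio table. They were the only probes at least 2-fold higher among the 85 with a geometric mean intensity of at least 50 and a spot CV of at most 20% on both arrays, miR-709 left out. Both belong to a group of rodent miRNAs with high serial numbers, found by later cloning and sequencing, for which little function is known.

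Just under 2-fold were miR-1899, from 311 to 612 (log2 ratio 0.98, spot SD 0.11), and miR-185, from 29.3 to 56.3 (0.94, spot SD 0.25). miR-1907 went from 117 to 220, a log2 ratio of 0.91 with a spot SD of 0.18. Brighter still was miR-744, a conserved miRNA, which read 497 at 0 h and 844 at 8 h, a log2 ratio of 0.76 with a spot SD of 0.14. The passenger strand miR-92a* of the miR-17-92 cluster read 262 and 433, a log2 ratio of 0.72, while the guide strand miR-92a read 56.5 and 51.8, a log2 ratio of -0.13. miR-1195 was the second brightest probe at 0 h and read 22152 there against 33462 at 8 h, a log2 ratio of 0.60 with a spot SD of 0.07 and 1.29 in the ratio table.

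The other members of the higher end were dimmer at 0 h. miR-542-5p, at the top of the list, read 28.9 at 0 h and 75.4 at 8 h, with a log2 ratio of 1.38 and a spot SD of 0.43. miR-1188 from the Dlk1-Dio3 region read 24.5 and 46.8, a log2 ratio of 0.93 with a spot SD of 0.48. The passenger strand miR-712* read 31.96 and 59.38, with a log2 ratio of 0.89 and a spot SD of 0.14. For miR-466f-5p, which read 52.1 and 104, the log2 ratio of 1.001 was set beside a spot SD of 0.83. The same holds for miR-485, from 61.3 to 112, with 0.87 against 0.80. Over the 10 highest probes, 7 were in the ratio table and all 7 were at least 2-fold higher there, from 1.42 to 2.08 on the log2 scale. This is no second measurement, since they were chosen as highest on the same pair of arrays. The ratio table also lay a median of 0.61 above the sheet. Once it was centred on its median, miR-185 fell under 2-fold, at 0.96, and the others stayed above it.

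The lower end was made of dim probes. All 9 probes at least 2-fold lower read between 31.1 and 65.7 at 0 h and between 10.7 and 27.7 at 8 h. All 9 lay under the 25th percentile of 8 h intensities, 41.6, and 8 under the 10th, 23.2. Of the 103 probes that read at least 50 at 0 h, 3 were at least 2-fold lower, miR-328, miR-103 and miR-409-3p. Of the 106 probes whose geometric mean over both arrays was at least 50, 3 were 2-fold or more above 0 h and 0 as far below it. That filter was chosen after seeing the data.

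miR-328 read 54.5 at 0 h and 17.8 at 8 h, a log2 ratio of -1.62 with a spot SD of 0.52, and stood at -0.76 in the ratio table. The muscle miRNA miR-133a read 43.8 and 18.0, a log2 ratio of -1.28 with a spot SD of 0.48. miR-409-3p, of the imprinted Dlk1-Dio3 region, read 65.7 and 27.7, a log2 ratio of -1.25 with a spot SD of 0.43. The probe for miR-199a-3p and miR-199b, abundant in mesenchymal cells, read 31.1 and 14.7, a log2 ratio of -1.08 with a spot SD of 0.30. These 4 were the ones whose ratio exceeded 2 spot SDs. In the ratio table the latter 3 stood at -0.51, -0.54 and -0.29, below 0 but under 2-fold.

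The remaining 5 had spot SDs from 0.74 to 1.60, so their order has little meaning. miR-30b read 33.7 at 0 h and 10.7 at 8 h, a log2 ratio of -1.66 with a spot SD of 1.38. It was the lowest in the sheet and stood at 0.10 in the ratio table, on the other side of 0. miR-103, a relative of miR-107 and of miR-15 and miR-16, read 60.0 and 23.1, a log2 ratio of -1.38 with a spot SD of 1.39. miR-382 (41.6 and 18.3, -1.19) and miR-23b (46.0 and 21.3, -1.11) had ratio table values of -0.62 and -0.15. let-7c read 46.0 and 22.1, a log2 ratio of -1.06 with a spot SD of 1.60, and stood at -1.74 in the ratio table. It was the only probe of the sheet at least 2-fold lower in both readouts.

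Just inside and just outside the 2-fold threshold, values lay close together. On the higher side miR-1902 (1.30) and miR-466f-5p (1.001) were inside, with miR-1899 (0.98) and miR-185 (0.94) outside. On the lower side miR-199a-3p/miR-199b (-1.08) and let-7c (-1.06) were inside, with miR-384-3p (-0.91) and miR-150* (-0.90) outside. In the authors' deposited table a p-value under 0.05 stood beside 27 higher and 32 lower probes. It stood beside 4 of 4 probes at least 2-fold higher and 4 of 9 at least 2-fold lower. With 1 array a side this p-value cannot hold variation between cultures or arrays. The lower probes that carry it include miR-709, which is treated below as saturated.

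**Figure D2:**
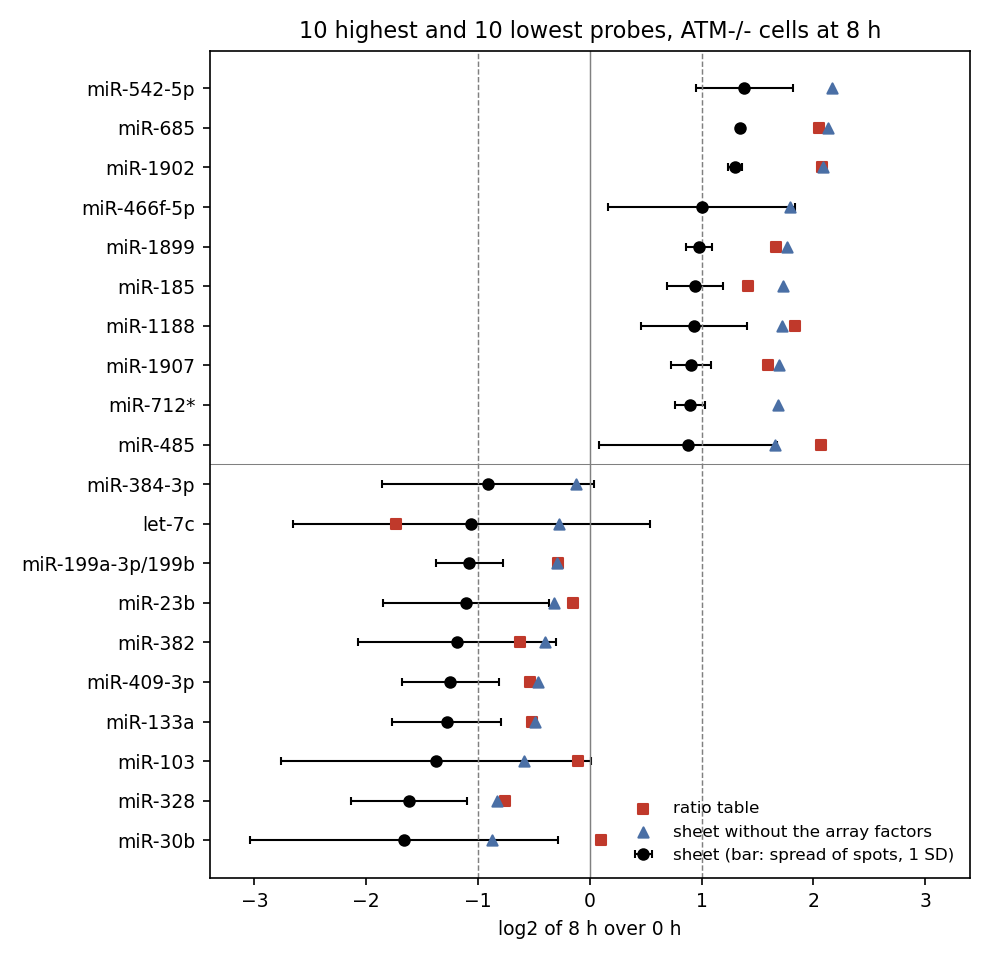
Log2 ratio of 8 h over 0 h for the 10 highest and 10 lowest probes of ATM-/- fibroblasts: circles are the sheet with a bar of 1 spot SD, squares the ratio table, triangles the sheet with the array factors divided out. The 7 higher probes that have a square have it between 1.42 and 2.08, and the lower probes have most squares between -0.76 and 0.10, with let-7c at -1.74.

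The level of each ratio was set by 1 factor per array. The dim intensities of an array were whole multiples of a single step, 0.219 at 0 h and 0.127 at 8 h, for 77 of 77 dim values per array within a tolerance of 0.1 of a step. The log2 ratio of these steps, 8 h over 0 h, was -0.79. It equals the sheet's log2 ratio of the brightest probe, miR-709, whose spot CVs were only 0.000882% at 0 h and 0.0100% at 8 h. With 6 steps to a scanner unit, which puts miR-709 near the top of a 16-bit scale, the array factors were 1.31 and 0.761. miR-709 then read 65467 units at 0 h and 65457 at 8 h, next to the ceiling of 65535. It is treated as saturated on both arrays, so its ratio is not read as a change in level.

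Without the factors most probes lay above 0. The median log2 ratio over the 154 probes was 0.69, with 140 probes above 0 and 14 below, of which 40 lay at least 2-fold above and 0 at least 2-fold below. All 10 of the highest probes were above 0 and all 10 of the lowest still below it. The 9 probes at least 2-fold lower in the sheet read at least 23.7 scanner units at 0 h and at most 36.3 at 8 h, close to the bottom of the scale. For miR-21 the scanner units were 26.0 and 27.7, for miR-1195 16864 and 43954, and for miR-720, which is regarded as a tRNA fragment, 16559 and 29377. Log2 ratios of the ratio table minus these unscaled ones had a median of -0.17, against 0.61 for the ratio table minus the sheet as deposited. In the 4 h sheet of these cells the log2 ratio of the factors was -0.63 and the median shift between the readouts 0.09. In the 24 h sheet these were -0.05 and 0.05, and at 8 h -0.79 and 0.61. What set the shift at 8 h was not tested.

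**Figure D3:**
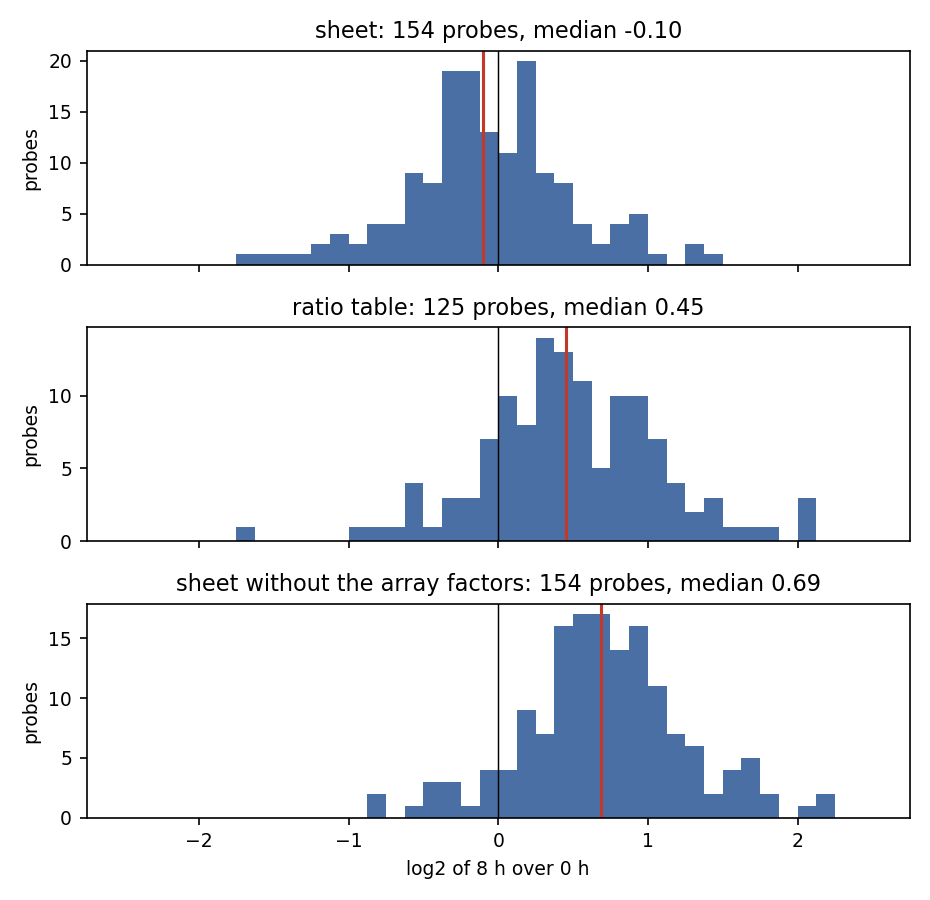
Number of probes by log2 ratio of 8 h over 0 h on 3 scales, for the sheet, the ratio table and the sheet with the array factors divided out; red lines mark medians and black lines 0. The medians are -0.10, 0.45 and 0.69 over 154, 125 and 154 probes.

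The shift between readouts was tight for bright probes and loose for dim ones. For the 80 shared probes with an intensity of at least 50 on both arrays it had a median of 0.65 and an SD of 0.22. For the other 45 it had a median of 0.52 and an SD of 0.52, and the middle 80% ran from -0.23 to 0.97. Spread went the same way within the sheet. Of the 39 dimmest probes by mean intensity 8 had a sheet ratio of at least 2-fold either way, with a median spot SD of 0.69. Of the next 39, the next 38 and the brightest 38 probes, 3, 0 and 2 had one, with median spot SDs of 0.31, 0.21 and 0.16. With a mean intensity of at least 50 and a spot CV of at most 20% on both arrays, and miR-709 left out, 85 probes remained, of which 2 were at least 2-fold higher and 0 lower. At 1.5-fold, 8 of them were higher and 3 lower, the latter being miR-431, let-7b and miR-541.

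The let-7 family, whose members restrain growth genes such as Ras and Myc family members, had 2 of its 6 probes higher and 4 lower in the sheet, where 56.5% of all probes were lower. Its median log2 ratio was -0.43 against -0.10 over all probes. The brightest were let-7b, with 89.3 at 0 h and 56.6 at 8 h (-0.66, spot SD 0.22), and let-7e, with 84.5 and 87.0 (0.04, spot SD 0.25). The ratio table had these at 0.32 and 0.39. let-7a read 59.1 and 51.4 on one probe and 39.8 and 23.6 on the other, log2 ratios of -0.20 and -0.76, the latter with a spot SD of 1.31. let-7d read 25.8 and 32.7, a log2 ratio of 0.34 with a spot SD of 0.93. In the ratio table the median of the 5 probes it holds was 0.32, so the family's side of 0 depended on the readout, and it was below the median of all shared probes in both.

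miRNAs whose maturation has been linked to KSRP, a list that shares its let-7 members with the family above, had 11 probes, of which 1 was higher and 10 lower. Over all probes 56.5% were lower, and 6 of the 11 read under 50 on at least 1 array. The list had a median log2 ratio of -0.35 in the sheet, against -0.10 over all probes. In the ratio table its median was 0.21, against 0.45 over all shared probes. Among the KSRP-linked probes the smooth muscle and fibroblast miRNA miR-145 read 1086 at 0 h and 855 at 8 h (-0.35, spot SD 0.23). Its cluster partner miR-143 read 118 and 110 (-0.10, spot SD 0.21). Their values in the ratio table were above 0, at 0.24 and 0.81. For miR-21, an abundant miRNA of growing fibroblasts, the intensities were only 34.2 and 21.1, with a spot CV of 98.1% at 8 h.

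Lists tied to the damage response gave small ratios. The p53-linked list had 3 listed probes, all 3 lower, with a median of -0.17 in the sheet and 0.24 in the ratio table. Over all probes 56.5% were lower, with medians of -0.10 in the sheet and 0.45 for shared probes in the ratio table. miR-34a, the best known p53 target among miRNAs, read 38.1 at 0 h and 33.8 at 8 h, a log2 ratio of -0.17 with a spot SD of 1.25. A difference was not detectable at this signal. The other members, miR-143 and miR-145, are given above. The list of miRNAs with a reported target among ATM, H2AX and BRCA1 had 2 probes on the sheet. miR-24, reported to target H2AX, read 538 and 437 (-0.30, spot SD 0.13). miR-18a, reported to target ATM, read 62.6 and 56.6 (-0.15, spot SD 0.37). Both were above 0 in the ratio table, at 0.43 and 0.45.

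The proliferation-linked miR-17-92 cluster and its paralogs had 5 listed probes, all 5 lower, where 56.5% of all probes were lower. They had a narrow range from -0.22 for miR-19b to -0.12 for miR-93. Their median was -0.15 in the sheet and 0.45 in the ratio table, the same as the median of all shared probes there. The miR-23, miR-24 and miR-27 list had 3 probes, all 3 lower, with miR-23a at -0.35 and a median of -0.35 (0.11 in the ratio table). The miR-125, miR-99 and miR-100 list had 5 probes with 2 higher and 3 lower and a median of -0.10. The miR-296 and miR-298 list had 3 probes with a median of -0.06, of which miR-298 was above 0 at 0.40. Of 14 passenger strands marked by a star, 7 were higher and 7 lower, with a median of -0.07.

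Other families had 1 or 2 listed probes. In the miR-181 family miR-181a stood at -0.30 and miR-181b at 0.19. Likewise miR-221 stood at -0.30 (spot SD 0.32) and miR-222 at 0.19 (spot SD 0.23). Both come from a single precursor transcript, and miR-222 was dim, at 44.7 and 51.0. miR-29a, a regulator of collagen genes, read 184 and 209, a log2 ratio of 0.19 with a spot SD of 0.22. In the miR-30 family miR-30d read 128 and 100 (-0.35, spot SD 0.16, and 0.32 in the ratio table) beside the dim miR-30b. miR-574-5p stood at -0.08 and miR-574-3p at -0.58. miR-103 was the only listed member of the miR-15, miR-16 and miR-107 list.

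The Dlk1-Dio3 region on chromosome 12 holds a large imprinted cluster of miRNAs expressed from the maternal allele, and all 21 listed probes of that list have a RefSeq locus within it. Of these, 5 were higher and 16 lower, where 56.5% of all probes were lower. The list median was -0.28 in the sheet, against -0.10 over all probes. In the ratio table it was 0.24 over 18 probes, against 0.45 over all shared ones. The range was wide, from -1.25 for miR-409-3p to 0.93 for miR-1188, although the cluster is transcribed in one direction. Of its brighter members miR-127 read 193 at 0 h and 158 at 8 h (-0.29, spot SD 0.16, and 0.20 in the ratio table). miR-541 read 121 and 79.9 (-0.60, spot SD 0.13), and the pair of miR-431 probes stood at -0.47 and -0.69. On the other side of 0, miR-665 read 223 and 384, with a log2 ratio of 0.79, a spot SD of 0.79 and a ratio table value of 0.08.

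The repeat-derived miR-297, miR-466, miR-467 and miR-669 miRNAs, called the repeat miR-466 group below, stood mostly above their 0 h level. Most of them come from tandem copies in an intron of Sfmbt2 on chromosome 2, where 12 of the 16 listed probes have a RefSeq locus. The other 4, miR-467f, miR-466i, miR-466j and miR-467h, have loci on other chromosomes. Of the 16 probes 14 were higher and 2 lower, where 43.5% of all probes were higher. The group had a median log2 ratio of 0.21 against -0.10 over all probes. In the ratio table the median of the 14 probes it holds was 0.80, against 0.45 over all shared probes. Among the brighter ones miR-669c read 187 and 226 (0.27, spot SD 0.23) and miR-669d read 74.4 and 102 (0.45, spot SD 0.14). miR-466j read 48.6 and 67.3, a log2 ratio of 0.47 with a spot SD of 0.10. They form families of related copies, and how far their probes read one another was not tested, so they are not 16 independent measurements.

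The rodent miRNAs with high serial numbers, 27 probes or 17.5% of the sheet, had 21 higher and 6 lower, the latter including the saturated miR-709. Over all probes 43.5% were higher. The list had a median log2 ratio of 0.27 in the sheet and 0.98 in the ratio table. Its members made up 6 of the 10 highest probes and 0 of the 10 lowest. The list was chosen with earlier results of these data known, so these counts are not an independent result. Beside those described above, miR-691 read 52.5 and 93.1 (0.83), miR-1892 read 760 and 1100 (0.53, spot SD 0.12), and miR-711 read 640 and 823 (0.36, spot SD 0.08). The lowest with miR-709 left out was miR-681 at -0.62, from 28.5 to 18.5. The remaining 111 probes, in neither of these groups, had 32 higher and 79 lower with a median of -0.20. Some of the high-numbered names were very bright: miR-709, miR-1195, miR-720 and miR-690, with miR-762 and miR-1224, were the 6 brightest probes at 0 h.

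**Figure D4:**
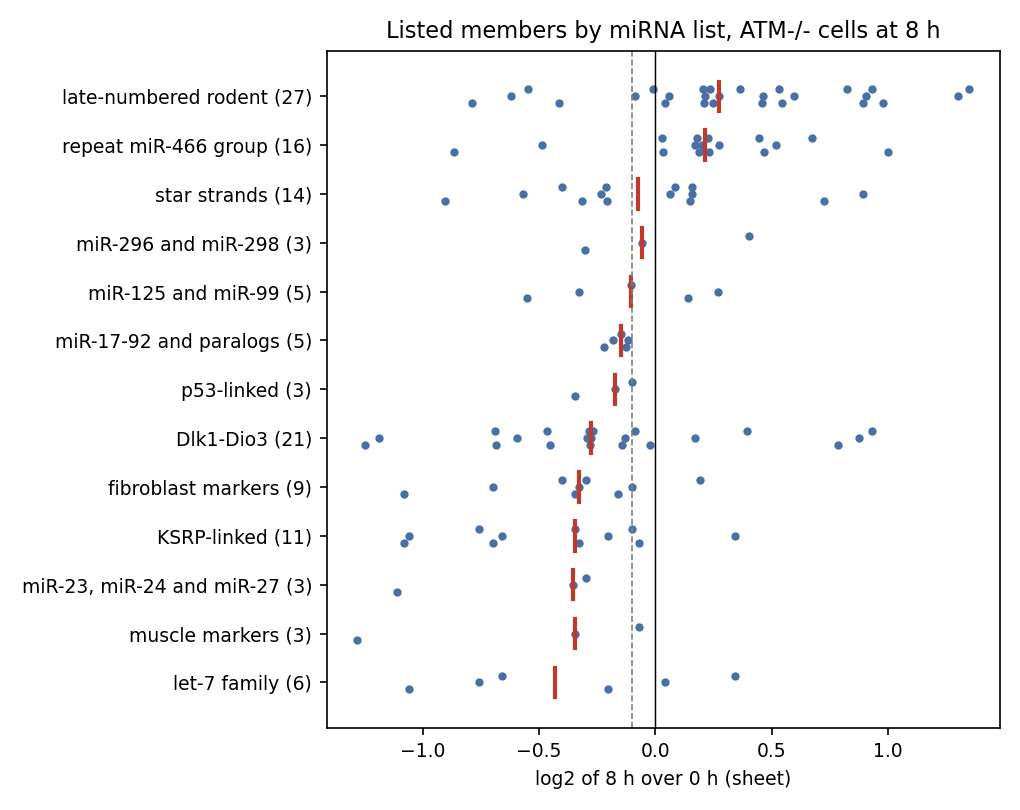
Log2 ratio of 8 h over 0 h in the sheet for the listed probes of each miRNA list, with the number of probes in brackets; each point is a probe, red bars are list medians, the dashed line is the median of all 154 probes and the solid line 0. The high-numbered (late-numbered rodent) list and the repeat miR-466 group have medians of 0.27 and 0.21, and the let-7 family has the lowest median shown, -0.43.

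Markers of the labelled cell type were present, though some were dim. Of 10 miRNAs abundant in fibroblasts and other mesenchymal cells, 9 were listed, with 0 h intensities from 31.1 to 1086. miR-145 was the brightest, followed by miR-214 (562 at 0 h, 425 at 8 h), miR-22 (518 and 463) and miR-125b-5p (366 and 291). miR-21 and miR-199a-3p/miR-199b were near the low end of the array, at 34.2 and 31.1. In the separately normalized sheet of the ATM+/+ cells the same probes read 1204 and 361 at 0 h, values that cannot be set against these as levels. The summed intensity of the 9 markers was 2998 at 0 h and 2425 at 8 h. Of them 1 was higher and 8 lower, where 56.5% of all probes were lower. Of these markers miR-143, miR-145, miR-125b-5p, miR-21 and miR-199a-3p/miR-199b are also on the KSRP-linked list. Their median log2 ratio was -0.33 in the sheet, against -0.10 over all probes. In the ratio table it was 0.25, against 0.45 over all shared probes.

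Of markers of other cells, 3 muscle probes were listed, all 3 lower where 56.5% of all probes were, with a median of -0.35. They were miR-133a, miR-1, which read 129 and 101 (-0.35, spot SD 0.13), and miR-206, which read 30.7 and 29.2. The epithelial miR-141 read 173 and 154, a log2 ratio of -0.17. None of the listed probes belonged to the pluripotent, blood, neural, liver or endothelial lists. In these bulk samples fewer cells of a type and less RNA per cell cannot be told apart.

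The other times of the ATM-/- cells share the 0 h array, so their values are given side by side only. Their sheets list 185 probes at 4 h and 126 at 24 h. Ratios of 2-fold or more above 0 h were seen for 2 (1.08%) at 4 h and 3 (2.38%) at 24 h, and as far below it for 1 (0.541%) and 16 (12.7%). miR-1902 stood at 0.62 at 4 h, 1.30 at 8 h and 1.43 at 24 h. miR-685 stood at 0.89, 1.35 and 0.02, and miR-1899 at 0.29, 0.98 and 0.62. In the sheets as deposited the 8 h value of these was above the 4 h value, and only miR-1902 was higher again at 24 h. The 3 sheets were scaled separately, with log2 ratios of the array factors of -0.63, -0.79 and -0.05. The order of times, here and for the lower end below, therefore depends on that scaling and was not tested. The 0 h and 4 h arrays lay on one chip and the 8 h and 24 h arrays on another. A change from 4 h to 8 h is thus also a change of chip.

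At the lower end miR-409-3p stood at -0.87 at 4 h, -1.25 at 8 h and -0.68 at 24 h. miR-103 stood at -0.77, -1.38 and -0.73, and miR-199a-3p/miR-199b at -0.69, -1.08 and -0.20. These were below 0 at all 3 times. By contrast miR-328 stood at 0.23, -1.62 and -0.01, and let-7c at 0.79 at 4 h before its -1.06 at 8 h. For miR-133a the values were 0.17, -1.28 and -0.45. The repeat miR-466 group had medians of 0.63 at 4 h, 0.21 at 8 h and -0.78 at 24 h, and the high-numbered list medians of 0.10, 0.27 and -0.31.

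The ATM+/+ cells at 8 h have arrays of their own, and 147 of the 154 probes were also in their sheet. That sheet lists 298 probes, of which 11 (3.69%) lay 2-fold or more above 0 h and 25 (8.39%) as far below it. Across the 147 shared probes the log2 ratios of both genotypes ran in opposite senses, with Pearson's r of -0.37 and Spearman's rho of -0.43. Over the 98 of them with an intensity of at least 50 on both ATM-/- arrays Pearson's r was -0.46. Of the 64 shared probes that were higher in ATM-/- cells, 52 were lower in ATM+/+ cells. Of the 83 that were lower, 52 were higher in ATM+/+ cells. Probes share both pairs of arrays and are not independent, and with 1 array per group the difference between genotypes was not tested.

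These counts turn on the zero of each sheet. In the ATM+/+ sheet the log2 ratio of the array factors was -0.54, and its ratios and those of the ratio table differed by a median of 0.16. Over the 147 shared probes the ATM+/+ median was -0.28, with 64 above 0 (43.5%), against which the lists below are set. The 6 let-7 probes were above 0 in 6 of 6 cases in ATM+/+ cells with a median of 0.78, against -0.43 in ATM-/- cells. The KSRP-linked list had a median of 0.79 with 9 of 11 above 0, and the fibroblast markers a median of 0.64 with 8 of 9 above 0. Since the KSRP-linked list shares probes with both the let-7 and fibroblast lists, these are not separate results. The miR-17-92 list had a median of 0.51 with 5 of 5 above 0. In the other direction, the repeat miR-466 group had a median of -0.84 in ATM+/+ cells with 0 of 16 above 0. The high-numbered list had a median of -0.59 with 3 of 26 above 0.

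Among single probes miR-1902 stood at 1.30 in ATM-/- and -0.93 in ATM+/+ cells, and miR-199a-3p/miR-199b at -1.08 and 0.91. Of the 10 highest probes in ATM-/- cells 9 were measured in the ATM+/+ sheet and 8 of them were below 0 there. Of the 10 lowest 8 were measured and 6 were above 0. Over all 147 shared probes 43.5% were above 0 in ATM+/+ cells. All 10 of the lowest were dim, under 50 on at least 1 of the ATM-/- arrays. The ATM+/+ arrays followed the same chip layout, with 0 h and 8 h on different chips, so chip and time cannot be told apart in either genotype.

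**Figure D5:**
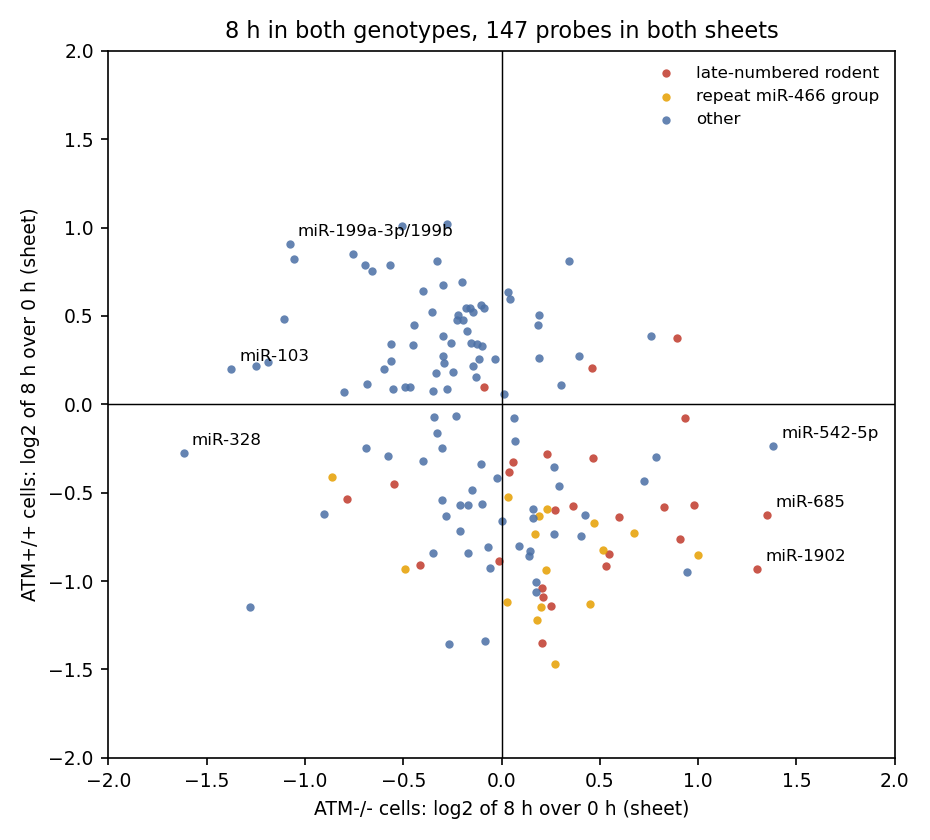
Log2 ratio of 8 h over 0 h in ATM+/+ cells against that in ATM-/- cells for the 147 probes in both sheets, coloured by probe class; lines mark 0. Most coloured probes of the high-numbered and repeat miR-466 groups lie to the right of 0 and below it, and miR-199a-3p/miR-199b lies at the upper left.

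Outside the sheet, the ratio table holds a further 306 of its 431 rows, with a median log2 ratio of -0.10 at 8 h. Over all 431 rows the median was 0.03, with 22 (5.10%) at 2-fold or more above 0 h and 13 (3.02%) as far below it. All 22 higher rows were probes of the sheet, and 12 of the 13 lower rows were outside it. Of these 12, 8 carry no name here. The others were miR-379 of the Dlk1-Dio3 region at -1.25, miR-30c at -1.06, miR-467a at -1.03 and the p53-linked miR-34b-5p, which lay at the 2-fold threshold itself. No intensity or spot CV is at hand for these rows, so the signal behind them is unknown.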

How the data were processed

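Total RNA was labelled from 4 µg per sample, per the labels' protocols, and hybridised to single-colour miRNA arrays. Each deposited sheet holds, per the file headers, normalized intensities of a pair of arrays with their spot coefficients of variation, a log2 ratio and a p-value. The authors also deposited a table of linear ratios to the 0 h array of each genotype. How the arrays were scanned and background-corrected, which test gave the p-value and why a probe was listed is not stated in the labels or headers. The log2 ratio was recomputed from the deposited intensities with no pseudocount and equals the deposited one. The spot SD of a ratio was propagated from both CVs. Array factors were recovered from the step size of dim intensities, as an alternative chosen after seeing the data. Sheet columns were tied to samples through the deposited slide lists.

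The named probes are the 10 highest and 10 lowest ratios, the 10 highest 0 h intensities, the 2 probes on each side of each 2-fold threshold and the listed members of lists from general knowledge. The high-numbered list holds the serial numbers from miR-680 to miR-720, from miR-1186 to miR-1199 and from miR-1892 to miR-1971. Members and lists were chosen with earlier results of these data known. Mature sequences came from a RefSeq table (GRCm38.p6), in which 47 of the 151 names matched exactly. Scripts ran in Python 3.11.15 with pandas 2.3.3 and numpy 2.4.6, and the ratio and step-size code was tested on simulated data. Alternatives were the ratio table, centring, filters on intensity and spot CV, 10 units added, quantile normalization and a 1.5-fold threshold, and a filter on the mean intensity of both arrays, chosen after seeing the data.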

Additional observations from a re-analysis of the deposited data

Results flagged for a closer look

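For 8 named miRNAs the log2 ratios to 0 h lay on one side of 0 at all 3 times in ATM-/- cells and on the other side at all 3 times in ATM+/+ cells. The share of all probes with this pattern was not determined, so the count of 8 has nothing to be set against. Except for miR-1195, they were named for being among the 10 highest or 10 lowest ATM-/- ratios at 8 h. A large difference between genotypes at 8 h is thus in part a result of that choice. The times of a genotype share 1 array at 0 h, sheets were scaled separately, and the difference between genotypes was not tested. The difference at 8 h, ATM-/- minus ATM+/+ on the log2 scale, was 2.23 for miR-1902, 1.98 for miR-685, 1.67 for miR-1907, 1.55 for miR-1899 and 1.23 for miR-1195. It was -1.99 for miR-199a-3p,miR-199b, -1.58 for miR-103 and -1.46 for miR-409-3p. Some values lay close to 0, namely miR-685 in ATM-/- cells at 24 h, at 0.02, and miR-1907 and miR-1195 in ATM+/+ cells at 4 h, at -0.05 and -0.06. Without the array factors of the ATM-/- pair all 3 lower probes kept a ratio below 0 at 8 h. In the ATM+/+ 8 h sheet the log2 ratio of the factors was -0.54. The higher probes stood there between -0.93 for miR-1902 and -0.57 for miR-1899, each further below 0 than that log2 ratio of the factors. Without these factors they would therefore stay below 0, though miR-1899 only just.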

How the results depend on the processing

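The count of probes at least 2-fold higher, 4 as reported, was 22 in the ratio table, 7 in the ratio table centred on its median, 8 in the centred sheet, 8 after quantile normalization, 2 with a spot CV of at most 20% on both arrays, 16 at 1.5-fold and 40 without the array factors. The count of probes at least 2-fold lower, 9 as reported, was 1 in the ratio table, 5 in the centred ratio table, 0 with an intensity of at least 50 on both arrays or in their geometric mean, 1 with the spot CV filter, 4 with 10 units added, 3 after quantile normalization, 21 at 1.5-fold and 0 without the array factors. The filters leave fewer probes, the one on both arrays drops probes through a low 8 h value itself, and the added units shrink ratios of dim probes by construction. The median log2 ratio of -0.10 was 0.45 in the ratio table and 0.69 without the array factors. In the ratio table miR-30b was reversed, at 0.10. The medians of the high-numbered and repeat miR-466 lists, chosen with earlier results of these data known, were above 0 under every setting. Those of the let-7, KSRP-linked, fibroblast, miR-23, miR-24 and miR-27, Dlk1-Dio3 and muscle lists were below 0 under every setting but the ratio table and the sheet without array factors. The KSRP-linked list shares probes with the let-7 and fibroblast lists and, through miR-206, with the muscle list, so these are not separate results. No paired analysis was possible because each group holds 1 array. Low signal limits the lower end, where all 9 probes at least 2-fold lower read 27.7 or less at 8 h.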
